A study of Mus musculus with 2 samples.

Results

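Fragments of the structural RNAs that RNA polymerase III (Pol III) makes for ribonucleoprotein particles (RNPs) were counted in small RNA libraries of mouse embryonic stem (ES) cells. The RNAs were those of 8 genes, the Y RNA genes Rny1 and Rny3, the vault RNA gene Vaultrc5, the 7SK gene Rn7sk, the 7SL genes Rn7s1 and Rn7s2, and the RNase MRP and RNase P RNA genes Rmrp and Rpph1. A tag, which is a distinct read sequence with its number of reads, was taken when it matched an annotated transcript of these genes in sense and without mismatch. The transcripts of Rn7s1 and Rn7s2 are the same in sequence, so they were counted as 1 RNA, called 7SL here, which leaves 7 distinct RNAs. Of 1766298 tags in both libraries, 2454 matched these RNAs, and no tag matched more than 1 of them. All 8 genes had reads.

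The cells were J1, a mouse ES cell line grown on gelatin with the cytokine LIF, and the labels give no genetic change in either group. They were treated for 24 h with 1 mM AICAR, an activator of the energy sensor AMP-activated protein kinase, or with the same volume of the solvent DMSO. Total RNA of 18 to 30 nt was selected and sequenced, and there is 1 library per condition, so that no difference below has a replicate check. The clean reads numbered 18870345 with DMSO and 21091226 with AICAR. Hairpins of the Mir290 to Mir295 cluster, whose miRNAs are typical of mouse ES cells, held 3.33% and 5.78% of them. Values are given as RPM, that is, reads of a tag or RNA out of every 1000000 clean reads, and a count of 0 allows up to 0.159 RPM with DMSO and 0.142 RPM with AICAR. Ratios are AICAR over DMSO, and the intervals in parentheses are 95% exact binomial (Clopper-Pearson) intervals. They cover counting error only, compare these libraries and not the conditions, and are too narrow to the extent that PCR copies are not independent molecules.

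Y RNAs are short RNAs bound by the Ro protein, with roles in RNA quality control and in the start of DNA replication, and their 5′ and 3′ ends pair with each other to form a stem below a loop. 7SK RNA holds the transcription elongation factor P-TEFb in an inactive particle, and 7SL RNA is the scaffold of the signal recognition particle that brings ribosomes to the endoplasmic reticulum. RMRP and RPPH1 are the RNA subunits of RNase MRP, which takes part in ribosomal RNA processing, and of RNase P, which cuts the 5′ leader from transfer RNA precursors. Vault RNAs belong to the vault, a large cytoplasmic particle. Fragments of such RNAs are common in small RNA libraries, where a read reports a piece of the RNA and not the level of the full-length molecule.

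The transcripts of Rny1 and Rny3 are shown whole because, of the ends of these RNAs, the 5′ end of Rny1 had the lowest ratio between the libraries. The sequences are those of GENCODE M21. Capitals mark the most abundant tag at the 5′ end and the most abundant tag at the 3′ end, and positions are counted from 1 at the 5′ end of the transcript. In Rny1 these are bases 1 to 30 and 84 to 110 of 112, and in Rny3 bases 1 to 24 and 75 to 100 of 102.
Rny1: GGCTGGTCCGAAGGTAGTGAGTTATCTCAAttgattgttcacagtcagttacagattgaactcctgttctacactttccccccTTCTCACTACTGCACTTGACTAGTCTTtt
Rny3: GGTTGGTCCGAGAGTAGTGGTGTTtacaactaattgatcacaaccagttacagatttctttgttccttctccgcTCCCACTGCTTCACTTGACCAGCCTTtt
The ends of both RNAs are alike, with 17 of the first 24 bases and 23 of the last 30 bases identical without gaps. On GRCm38, Rny1 (ENSMUSG00000065701.1) lies at chr6:47788069-47788180 on the minus strand and Rny3 (ENSMUSG00000064945.1) at chr6:47781624-47781725 on the plus strand, and neither overlaps another annotated gene.

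Together the 7 RNAs had 53503 reads with DMSO, which is 0.284% of the clean reads, and 35482 with AICAR, or 0.168%, a ratio of 0.593 (0.585 to 0.601). Rny1 and 7SL made up most of both, Rny1 with 50.5% and 44.4% of these reads and 7SL with 34.9% and 32.9%. On the reverse complement of the same transcripts, 1 read was found in all, on 7SL in the AICAR library. No read came from a tag that also matches the hairpin of a miRNA gene with a Mir symbol, the set called miRNA hairpins here. Annotated miRNA entries under other symbols were not in this set, and some of them overlap 7SL, as given below.

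Rny1 had 27000 reads with DMSO and 15754 with AICAR, which is 1431 and 747 RPM and a ratio of 0.522 (0.512 to 0.532). 7SL had 988 and 553 RPM, with a ratio of 0.560 (0.547 to 0.573). Rn7sk had 124 and 90.0 RPM, with a ratio of 0.728 (0.685 to 0.773). Rpph1 was the lowest of the 7 in ratio. It had 886 and 403 reads, or 47.0 and 19.1 RPM, with a ratio of 0.407 (0.361 to 0.458). Rny3, Vaultrc5 and Rmrp were at or above 1 in the AICAR library by this scale. Rny3 had 214 and 238 RPM, with a ratio of 1.11 (1.07 to 1.16). Vaultrc5 had 10.8 and 13.3 RPM, with a ratio of 1.23 (1.03 to 1.48), and Rmrp had 20.7 and 21.8 RPM, with a ratio of 1.05 (0.918 to 1.21), an interval that includes 1. The ratios of these 3 RNAs fall below 1 when reads are divided by the reads on miRNA hairpins in place of all clean reads. They were then 0.818 (0.784 to 0.852) for Rny3, 0.906 (0.754 to 1.09) for Vaultrc5 and 0.774 (0.675 to 0.889) for Rmrp, because the hairpin reads themselves had a ratio of 1.36. The interval of Vaultrc5 includes 1.

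No RNA of the 7 reached a ratio of 2, and 1 of the 7, Rpph1, was at or below 0.5. Among 1351 small and structural RNA genes counted in the same way, 6.88% had a ratio of at least 2 and 10.1% a ratio of at most 0.5. The median ratio of these genes was 0.868, with the middle 50% between 0.631 and 1.28, and 59.7% of them were below 1. The median of the 7 RNAs was 0.728, and 4 of the 7 were below 1. As summed reads, the 7 RNAs therefore lay within the range of these genes, with 7.11% of them below Rpph1, 12.1% below Rny1 and 14.1% below 7SL. The genes counted include the 7 RNAs themselves, and a tag was counted in full for each gene that it fits. Tags of 7SL, Rn7sk and Rpph1 also match 44, 63 and 8 other annotated genes. The comparison is therefore partly with the same reads.

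Per length of transcript, in RPM per kb, Rny1 had the highest level in both libraries, at 12775 with DMSO and 6669 with AICAR. In the DMSO library 7SL followed at 3295 and Rny3 at 2097, while in the AICAR library Rny3 was at 2331 and 7SL at 1845. Rn7sk came next with 374 and 272. Lowest were Rpph1 at 147 and 59.9, Vaultrc5 at 75.6 and 93.2, and Rmrp at 73.5 and 77.4. Vaultrc5 and Rmrp were nearest to each other in both libraries, and with no replicates their order cannot be set against a spread.

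**Figure D1:**
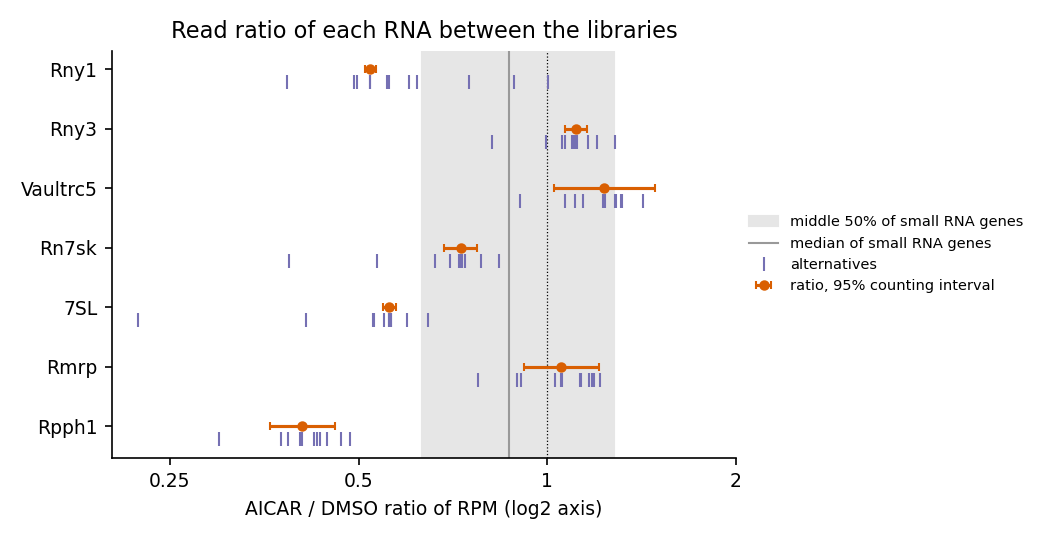
Ratio of RPM between the AICAR and the DMSO library for each of the 7 RNAs (log2 axis), with points for the ratio, bars for the 95% counting interval, ticks below for the alternatives in processing, and the median (0.868) and middle 50% of 1351 small RNA genes as a line and a grey band. Rny1, 7SL and Rpph1 lie to the left of the band, and the alternatives of Rny1 spread from 0.384 to 1.00.

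The sum over Rny1 joined fragments that moved apart. A tag was placed at the 5′ end when it started within 5 nt of the first base, at the 3′ end when it ended within 5 nt of the last, and otherwise inside. At the 5′ end, Rny1 had 15828 reads with DMSO and 2123 with AICAR, or 839 and 101 RPM, a ratio of 0.120 (0.115 to 0.126). Inside, it had 6892 and 7741 reads, with a ratio of 1.00 (0.973 to 1.04). At the 3′ end, it had 4280 and 5890 reads, with a ratio of 1.23 (1.18 to 1.28). The share of Rny1 reads at the 5′ end was thus 58.6% with DMSO and 13.5% with AICAR, and there were 3.70 reads at the 5′ end for each read at the 3′ end in the former and 0.360 in the latter.

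The low reads in the AICAR library were mostly those of the long 5′ fragments. The tag of bases 1 to 30, in capitals at the start of the Rny1 sequence above, had 8541 reads with DMSO and 281 with AICAR, which is 453 and 13.3 RPM and a ratio of 0.0294 (0.0260 to 0.0332), or 34-fold lower. It was the most abundant tag of all 7 RNAs in the DMSO library and held 31.6% of Rny1 reads there, against 1.78% in the AICAR library. All 5′ fragments of 31 nt had 2409 and 135 reads, and those of 29 nt had 1158 and 37 reads. Summed, 5′ fragments of 26 nt or more had 13400 and 526 reads, or 710 and 24.9 RPM, with a ratio of 0.0351 (0.0321 to 0.0383), 28.5-fold lower. This length limit was chosen after the values were seen.

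Shorter 5′ fragments of Rny1 were also lower, but by less. Those of 21 to 25 nt had 2323 and 1556 reads, with a ratio of 0.599 (0.562 to 0.639), and among them the 23 nt fragments, which end at base 23, had 1206 and 905 reads. The most frequent length at the 5′ end was therefore 30 nt in the DMSO library and 23 nt in the AICAR library. Without the 5′ fragments of 26 nt or more, Rny1 had 13600 and 15228 reads, or 721 and 722 RPM, and the ratio was 1.00 (0.979 to 1.03). The low ratio of Rny1 as a whole thus rested on these fragments, which were 49.6% of its reads with DMSO and 3.34% with AICAR. Without the most abundant tag alone, the ratio of Rny1 was 0.750, and with tags of at most 25 nt alone it was 0.885.

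**Figure D2:**
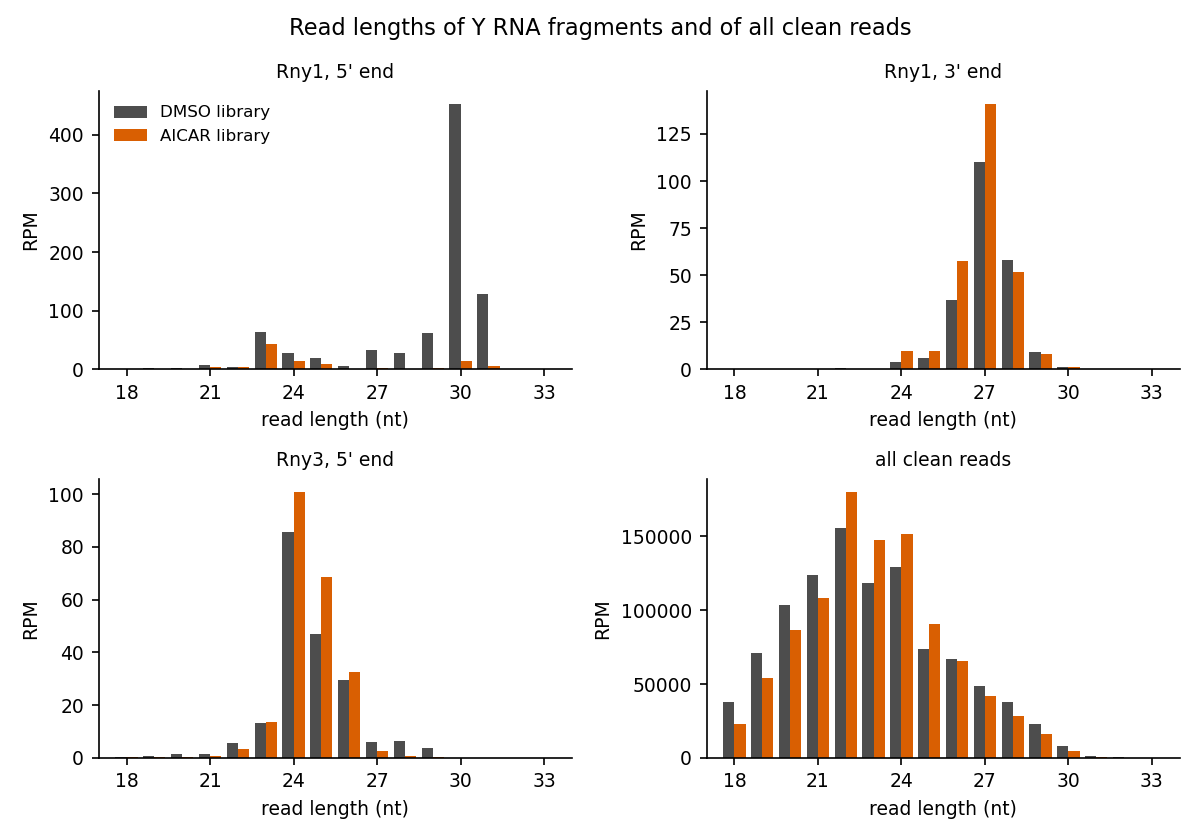
RPM at each read length for tags at the 5′ end of Rny1, the 3′ end of Rny1, the 5′ end of Rny3 and all clean reads, with the DMSO library in grey and the AICAR library in orange. The bar at 30 nt of Rny1 5′ fragments is at 453 RPM with DMSO and 13.4 RPM with AICAR. Rny1 3′ fragments, which must end within 5 nt of the last base, peak at 27 nt in both. All fragments that start within 3 nt of base 84 had a most frequent length of 22 nt with DMSO and 23 nt with AICAR.

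Read lengths differed between the libraries as a whole, and in the same direction. Reads of 28 nt or more were 7.12% of clean reads with DMSO and 5.05% with AICAR, and clean reads of 30 nt had a ratio of 0.562. The selected size range ended at 30 nt, so that these fragments lay at its edge. Had each length of Rny1 5′ fragments changed as all clean reads of that length did, 8959 reads of 26 nt or more would stand in the AICAR library, against 526 observed, a 17-fold difference. With the ratio of each length taken into account in this way, the ratio of Rny1 as a whole was 0.620. Single tags vary widely around the ratio of their length. Among 89 tags of 28 to 32 nt with at least 100 RPM with DMSO, the median ratio was 0.541. Of these, 3 had a lower ratio than the Rny1 tag of bases 1 to 30, the lowest at 0.0105. Among 1290 tags of 18 to 44 nt at that level, 4 had a lower ratio. At the 3′ end of Rny1, fragments of 28 nt had 1099 and 1086 reads and those of 29 nt had 176 and 174, with ratios of 0.884 and 0.885, against 0.0332 and 0.0286 for 5′ fragments of the same lengths. Fragments of 30 nt at the 3′ end had only 26 and 24 reads, with a ratio of 0.826, against 0.0296 for 5′ fragments of 30 nt. Of all clean reads of 30 and 31 nt, Rny1 5′ fragments made up 6.0% with DMSO and 0.365% with AICAR. Whether the edge of the size selection fell alike in both libraries was not tested.

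Fragments of the 3′ part of Rny1 began at a fixed place. Of the Rny1 reads in the DMSO library 26.4% started at base 84 and 13.5% at base 83, and in the AICAR library 62.7% and 21.5%. Both bases lie in a stretch, bases 70 to 85, that is unpaired in the predicted minimum free energy fold. Fragments that started within 3 nt of base 84 had 10987 and 13495 reads, or 582 and 640 RPM, with a ratio of 1.10 (1.07 to 1.13). They ended at several places. Rny1 reads ending at base 105 numbered 3650 and 2769 reads, those ending at base 106 numbered 3033 and 4829, and those ending at base 110 numbered 2644 and 3456. The most frequent 3′ arm tags therefore differed, with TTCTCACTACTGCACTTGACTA (bases 84 to 105) at 135 and 100 RPM and the tag that is 1 base longer, TTCTCACTACTGCACTTGACTAG, at 81.0 and 143 RPM. Their ratios were 0.742 (0.700 to 0.787) and 1.77 (1.66 to 1.88), so the groups of reads that end 1 base apart moved in opposite directions. Most of the reads that were counted inside Rny1 are of this arm and end 6 or 7 bases before the annotated end, and with an end limit of 10 nt the share at the 3′ end became 40.8% with DMSO and 85.9% with AICAR.

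Part of the Rny1 reads carried an A that the transcript does not have. Of the reads that stopped at base 110 or went on from it with a single A, 33.8% with DMSO and 25.4% with AICAR had the A, and at base 109 the shares were 57.5% and 42.8%, where the annotated next base is T in each case. These were 1347 and 1176 reads after base 110 and 1225 and 1032 reads after base 109. A second A after base 110 was seen in 219 and 106 reads. Such reads were not among the matched reads above. With reads of up to 3 added bases, the 3′ end of Rny1 had 7529 and 8578 reads, with a ratio of 1.02 (0.988 to 1.05) in place of 1.23, and there were 2.10 and 0.247 reads at the 5′ end for each read at the 3′ end. None of the reads with a single added A at the 3′ end of Rny1 matched another annotated transcript, while matches elsewhere in the genome were not analysed here. The 3′ end of Rny3 showed the same addition at low numbers, with 50 and 36 reads that had an A after base 99.

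Rny3, close to Rny1 in the sequence of its ends, had a different make-up. It had 3796 reads at the 5′ end with DMSO and 4708 with AICAR, which is 94.1% and 93.9% of its reads, with a ratio of 1.11 (1.06 to 1.16). Its 3′ end had 74 and 80 reads. Rny3 thus had 51.3 reads at the 5′ end for each at the 3′ end with DMSO and 58.9 with AICAR. The tag of bases 1 to 24, in capitals above, had 1612 and 2119 reads, or 85.4 and 100 RPM, with a ratio of 1.18 (1.10 to 1.26). The tags that end at base 25 and 26 had 879 and 1441 reads and 555 and 685 reads. These 3 ends lie in a predicted unpaired stretch, bases 24 to 27, whereas base 30 of Rny1 lies in a predicted stem, bases 29 to 37.

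The longest 5′ fragments of Rny3 were low in the AICAR library as well. Those of 28 nt or more had 193 reads with DMSO and 15 with AICAR, with a ratio of 0.0695 (0.0382 to 0.118), and 158 would be expected from all clean reads of these lengths. They were a small part of Rny3, 5.08% and 0.319% of its 5′ reads. Those of 21 to 25 nt had 2887 and 3932 reads, with a ratio of 1.22 (1.16 to 1.28). At 28 nt or more, 5′ fragments were thus low in the AICAR library in both Y RNAs, with a ratio of 0.0340 in Rny1. At the limit of 26 nt used for Rny1 above, the RNAs differed. Rny3 then had 865 and 755 reads, with a ratio of 0.781 (0.707 to 0.862), against 0.0351 in Rny1. Those of 21 to 25 nt had a ratio of 0.599 in Rny1 and of 1.22 in Rny3. When each length was set against all clean reads of that length, the ratio of Rny3 as a whole was 0.995.

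**Figure D3:**
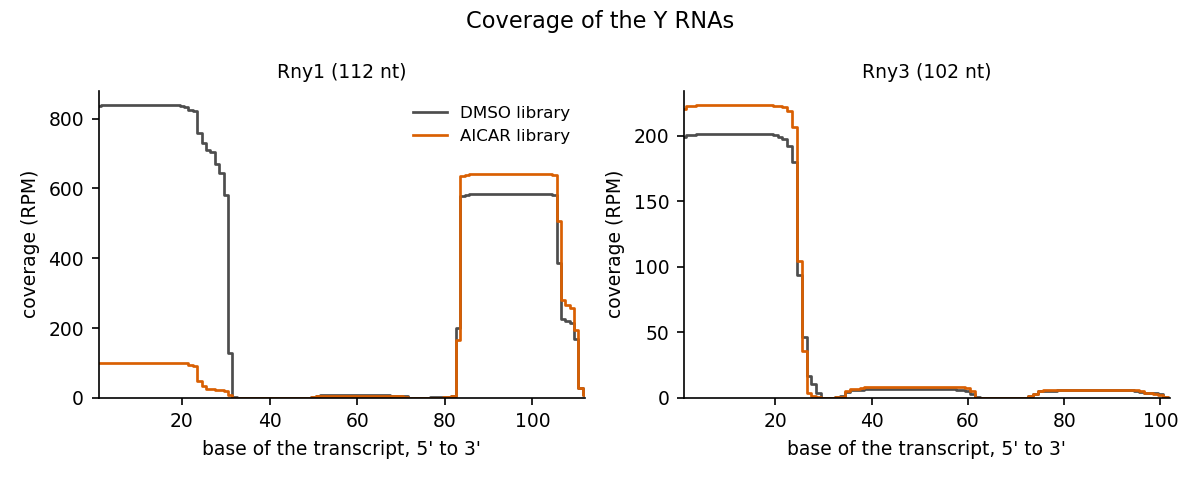
Coverage in RPM of each base of Rny1 (left) and Rny3 (right), from the 5′ to the 3′ end of the transcript, in the DMSO (grey) and the AICAR library (orange). The block at the 5′ end of Rny1 is much lower in the AICAR library, the block from base 84 is similar in both, and Rny3 shows 1 main block that ends near base 24.

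Of the Rny1 reads, 13.8% with DMSO and 17.9% with AICAR were on tags that also match 7 other annotated genes, the most used of them Gm24372, Gm24379 and Gm22199. No Rny3 tag matched another transcript. On tags of Rny1 alone, the ratio was 0.497.

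**Figure D4:**
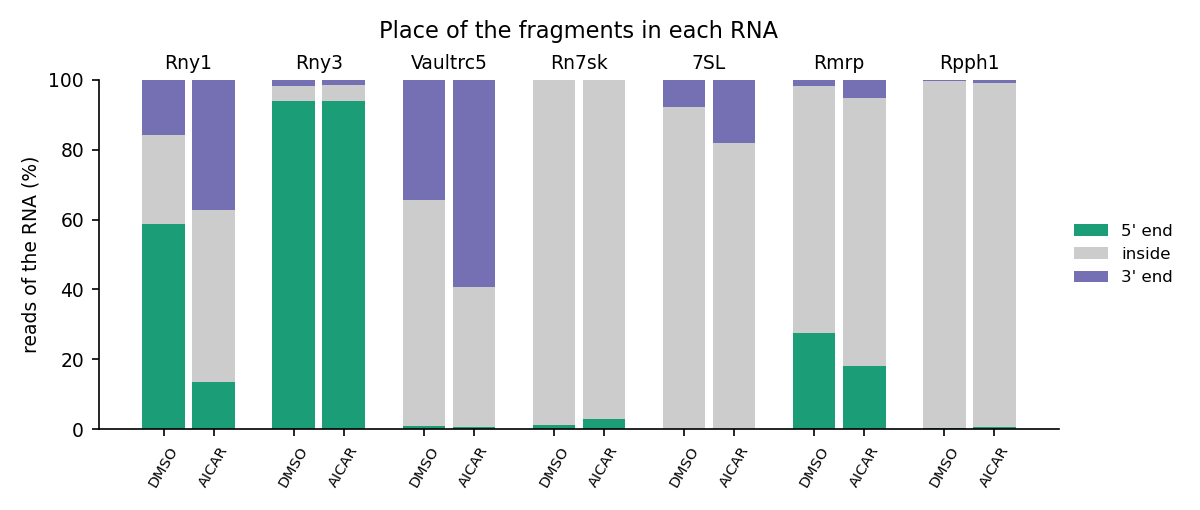
Percent of the reads of each RNA at the 5′ end (green), inside (grey) and at the 3′ end (purple), by library. Rny1 moves from 58.6% to 13.5% at the 5′ end, Rny3 stays near 94%, and Rn7sk and Rpph1 lie almost wholly inside in both libraries.

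In the longer RNAs, fragments came from a few places inside the molecule. Leading tags of Rn7sk, 7SL, Rmrp and Rpph1 are shown in capitals with up to 10 bases on each side, to let the places that moved apart be told from each other.
Rn7sk, bases 127 to 151: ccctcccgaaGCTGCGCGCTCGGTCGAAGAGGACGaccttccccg
Rn7sk, bases 244 to 266: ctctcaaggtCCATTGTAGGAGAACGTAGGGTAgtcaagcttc
7SL, bases 74 to 96: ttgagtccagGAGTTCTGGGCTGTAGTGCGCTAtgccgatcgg
Rmrp, bases 5 to 32: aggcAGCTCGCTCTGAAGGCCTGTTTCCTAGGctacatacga
Rmrp, bases 163 to 185: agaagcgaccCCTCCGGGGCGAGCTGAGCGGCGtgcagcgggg
Rpph1, bases 225 to 246: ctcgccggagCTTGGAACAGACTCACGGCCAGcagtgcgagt
Fragments that start within 3 nt of such a tag are counted below as 1 group, a grouping made after the values were seen.

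Rn7sk (ENSMUSG00000065037.1) is 331 nt long and lies at chr9:78175303-78175633 on the minus strand, apart from other annotated genes. Of its reads 98.8% with DMSO and 97.1% with AICAR were inside. Its 2 leading places moved in opposite directions. The group at base 127 had 410 reads with DMSO and 852 with AICAR, or 21.7 and 40.4 RPM, with a ratio of 1.86 (1.65 to 2.10). That at base 244 had 784 and 267 reads, or 41.5 and 12.7 RPM, with a ratio of 0.305 (0.264 to 0.351). The order of the 2 places was therefore turned between the libraries, and the ratio of 0.728 of the whole RNA describes neither of them. Fragments from base 49 were also fewer, with 314 and 174 reads. The most frequent read length of Rn7sk was 21 nt in the DMSO library and 25 nt in the AICAR library. Much of the count is shared, since 53.8% and 75.4% of Rn7sk reads were on tags that also match 1 or more of 63 other annotated genes, and on the tags of Rn7sk alone the ratio was 0.387.

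7SL comes from Rn7s1 (ENSMUSG00000099021.1, chr12:69159295-69159594, plus strand) and Rn7s2 (ENSMUSG00000099250.1, chr12:69361182-69361481, minus strand), each of 300 nt, and the reads cannot be divided between them. Annotated miRNA entries, Gm47287 and Gm47295 in the first and Gm47299 and Gm47305 in the second, overlap these genes on the same strand. The group at base 74 had 3015 reads with DMSO and 2136 with AICAR, or 160 and 101 RPM, with a ratio of 0.634 (0.599 to 0.670). It held 16.2% and 18.3% of 7SL reads and does not stand for the inside of 7SL, where all fragments together had a ratio of 0.497 (0.485 to 0.510) and larger groups are not reported here. At the 3′ end 7SL had 1473 and 2116 reads, with a ratio of 1.29 (1.20 to 1.37), so the end went the other way.

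The 3′ end of 7SL took a larger share of its reads in the AICAR library, 18.1% against 7.90%, and the inside a smaller one, 81.7% against 92.0%. Within an end limit of 2 nt the share at the 3′ end was 0.107% with DMSO and 0.643% with AICAR. Tags that also match other annotated transcripts, among them Rn7s6 and the overlapping miRNA entry Gm47287, held 97.6% and 99.0% of 7SL reads. On the few tags of 7SL alone the ratio was 0.222.

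Rmrp has 2 annotated transcripts, 1 of 281 nt (ENSMUSG00000115420.1, chr4:43492783-43493063, minus strand), which gives the positions here, and 1 of 271 nt within it (ENSMUSG00000088088.1). Ccdc107, a protein-coding gene, overlaps it on the other strand. Its summed reads, 390 and 459, hid a shift from several places to 1. From base 163 there were 101 reads with DMSO and 260 with AICAR, or 5.35 and 12.3 RPM, a ratio of 2.30 (1.82 to 2.93), which made up 25.9% and 56.6% of Rmrp reads. The leading tag, of bases 163 to 185, had 17 and 86 reads. Base 132 gave 48 and 10 reads, with a ratio of 0.186 (0.0841 to 0.373), and base 109 gave 58 and 23 reads, with a ratio of 0.355 (0.209 to 0.584). The 5′ fragments, which begin at base 5 and are mostly 27 or 28 nt long, had 107 and 83 reads, with a ratio of 0.694 (0.515 to 0.933).

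Base 5 of Rmrp falls outside an end limit of 2 nt, under which no read was at the 5′ end in either library. This holds for the 281 nt transcript, which begins at chr4:43493063. The 271 nt transcript begins at chr4:43493058, so base 5 lies close to its annotated 5′ end. Further reads, 110 with DMSO and 48 with AICAR, matched Rmrp to its last base and went on with 1 to 3 T bases. They were not counted above because the annotated transcript ends there. Counted at the 3′ end, they brought its reads to 117 and 72 and its ratio to 0.551 (0.405 to 0.745), against 7 and 24 reads and 3.07 without them. With all tags of up to 3 added bases the ratio of Rmrp as a whole was 0.907 in place of 1.05, and whether the T bases are in the gene was not tested.

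Rpph1 (ENSMUSG00000092837.1) is 319 nt long and lies at chr14:50807449-50807767 on the minus strand, where it overlaps an exon of a transcript of the protein-coding gene Ccnb1ip1 on the same strand. Its reads were inside in 99.5% of cases with DMSO and 98.5% with AICAR. In contrast to Rn7sk and Rmrp, its 5 leading groups were all lower in the AICAR library. The group at base 225 had 373 and 146 reads, or 19.8 and 6.92 RPM, with a ratio of 0.350 (0.287 to 0.425). Fragments from base 151 had 85 and 32 reads, with a ratio of 0.337 (0.217 to 0.511), and those from base 286 had 37 and 24 reads, with a ratio of 0.580 (0.332 to 0.996). Tags that also match Ccnb1ip1, Rprl1, Rprl2 or other annotated genes held 91.9% and 90.3% of Rpph1 reads, and on the rest the ratio was 0.485.

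**Figure D5:**
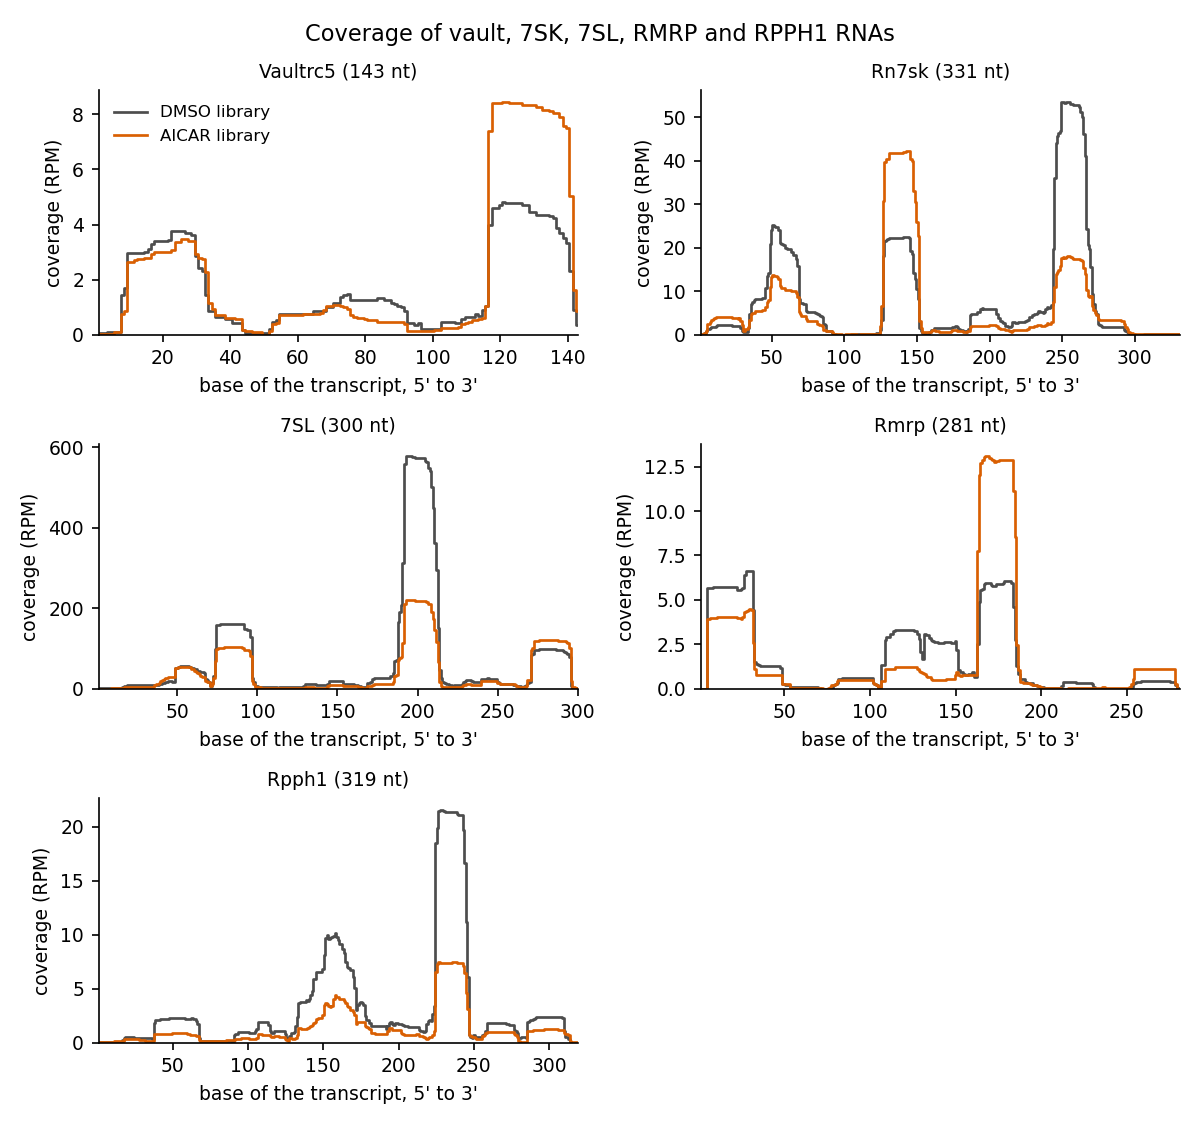
Coverage in RPM of each base of Vaultrc5, Rn7sk, 7SL, Rmrp and Rpph1, from the 5′ to the 3′ end of the transcript, in the DMSO (grey) and the AICAR library (orange). Rn7sk is higher near base 127 and lower near base 244 in the AICAR library, Rmrp is higher near base 163, Vaultrc5 is higher from base 117, and Rpph1 is lower along most of its length.

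Vaultrc5 (ENSMUSG00000065145.1), 143 nt, lies at chr18:36801866-36802008 on the plus strand and overlaps no other annotated gene. It had the fewest reads of the 7, 204 with DMSO and 281 with AICAR. At the 3′ end it had 70 and 167 reads, or 3.71 and 7.92 RPM, with a ratio of 2.13 (1.61 to 2.86), and inside it had 132 and 112 reads, with a ratio of 0.759 (0.585 to 0.984). The 3′ end thus held 34.3% of its reads with DMSO and 59.4% with AICAR. The fragments began mostly at base 117, with 55 and 134 reads, and ended at base 140 or 141. A second group, at base 10, had 54 and 56 reads, with a ratio of 0.928 (0.627 to 1.37), and with an end limit of 10 nt it brought the share at the 5′ end from 0.980% to 27.5% in the DMSO library and from 0.712% to 19.9% in the AICAR library.

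Across the RNAs, the 3′ end had a higher ratio than the RNA as a whole in Rny1, 7SL and Vaultrc5, at 1.23, 1.29 and 2.13, and at 1.02, 1.28 and 2.18 with reads of up to 3 added bases. In Rmrp the direction turned with such reads, as given above. In Rny3 the 3′ end ratio was 0.967 (0.696 to 1.35), and 0.751 (0.596 to 0.945) with them. Rn7sk and Rpph1 had 4 matched reads or fewer at the 3′ end in each library, and no direction can be read there. Inside fragments of the RNAs had ratios of 0.497 in 7SL, 0.715 in Rn7sk, 0.403 in Rpph1, 1.14 in Rmrp and 1.22 in Rny3. Fragments under 21 nt were 11.5% of all reads of the 7 RNAs with DMSO and 6.92% with AICAR, while they were 21.3% and 16.3% of all clean reads.

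Other short RNAs of Pol III or of RNPs were counted for comparison. 5S ribosomal RNA, as 180 n-R5s genes, had 29546 and 29366 reads, with a ratio of 0.889 (0.875 to 0.904). The spliceosomal U6 RNA gene Rnu6, whose copies can share its reads, had 2846 and 2091 reads, with a ratio of 0.657 (0.621 to 0.696). Terc, the telomerase RNA, had 61 and 43 reads, with a ratio of 0.631 (0.417 to 0.947), and Rnu7, the histone-processing U7 RNA, had 49 and 43 reads, with a ratio of 0.785 (0.509 to 1.21). Bc1, a neuronal Pol III RNA, had 52 and 73 reads, with a ratio of 1.26 (0.868 to 1.83), and Rnu73b had 122 and 217 reads, with a ratio of 1.59 (1.27 to 2.00). None of these passed a ratio of 2 or 0.5, and Rprl1 and Rprl2, which did with 0.377 and 0.332, had all their reads on tags of Rpph1. Rprl3 had 15 and 17 reads. Rnu6atac, Rnu6b, Rn4.5s and Vaultrc1 have no entry under these symbols in the annotation used.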

How the data were processed

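Small RNA libraries of J1 mouse ES cells, 1 with DMSO and 1 with AICAR, were analysed. The control sample's title is J1_U, and it was taken as DMSO from its treatment label. According to the methods, the authors selected RNA of 18 to 30 nt, sequenced it and removed low-quality and contaminant reads. The deposited files give each clean tag with its length and its count of reads, without alignment or normalization, and tags were 18 to 44 nt long. The submitters' processing notes name mm9. Coordinates here are from GENCODE M21 for GRCm38.

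Tags were matched to the transcripts in Python 3.11.15. A tag that fits several genes was counted in full for each, and genes with the same tags were counted once. Background genes had at least 1 RPM in at least 1 library. Folds were predicted with RNAfold 2.7.2. On simulated tags, all 7848 planted tags were found and all 212 genes without shared tags had a ratio within 25% of the planted value, against 88 of 188 genes with shared tags, so that ratios of background genes of repeated families are uncertain, and so are those of 7SL, Rpph1 and Rn7sk, most of whose reads are on shared tags. The members, lists, fragment groups and length limits were chosen with earlier results of these data known. The named items were all 8 members, the 5 leading tags of each and a list of other Pol III and RNP RNAs. With 1 library per condition no test was made. The largest groups of 7SL fragments are not reported here.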

Additional observations from a re-analysis of the deposited data

How the results depend on the processing

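The ratio of each RNA was recomputed under 12 alternatives. Rn7sk, 7SL and Rpph1 stayed below 1 in all of them. With reads on miRNA hairpins as the denominator the ratios were 0.384 for Rny1, 0.818 for Rny3, 0.906 for Vaultrc5, 0.535 for Rn7sk, 0.412 for 7SL, 0.774 for Rmrp and 0.299 for Rpph1. With median-ratio scaling they were 0.601 for Rny1, 1.28 for Rny3, 0.838 for Rn7sk, 0.645 for 7SL, 1.21 for Rmrp and 0.469 for Rpph1. With tags of at least 21 nt they were 0.492 for Rny1, 1.05 for Rny3, 0.785 for Rn7sk and 0.597 for 7SL. Without the most abundant tag they were 0.750 for Rny1, 0.661 for Rn7sk, 0.526 for 7SL and 0.895 for Rmrp. With 1 substitution allowed Rny1 was at 0.555, and with added 3′ bases Rny1 was at 0.560 and Rmrp at 0.907.

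Of these alternatives, 4 were chosen after seeing the data, as was the counting of added bases at the 3′ end. On tags with no match in another annotated transcript, the ratios were 0.497 for Rny1, 0.387 for Rn7sk, 0.222 for 7SL and 0.485 for Rpph1. With tags of at most 25 nt they were 0.885 for Rny1, 1.16 for Rny3 and 0.530 for 7SL. Standardised for tag length they were 0.620 for Rny1 and 0.995 for Rny3. Without 5′ tags of 26 nt or more they were 1.00 for Rny1 and 1.20 for Rny3. For Rny1 a rise is by construction, since the tags taken out had a low ratio. The limit was chosen after the values were seen, so the value of 1.00 depends on it and on the scale of all clean reads. This value joins 5′ fragments of 18 to 20 nt at 0.349 and of 21 to 25 nt at 0.599. It also holds inside reads at 1.00 and 3′ end reads at 1.23. The cause of the other shifts was not tested. The share of member reads under 21 nt was 14.6% with DMSO and 7.82% with AICAR without the most abundant tags, and 10.7% and 6.40% with 1 substitution allowed. With reads of up to 3 added bases counted, the ratio of the 3′ end of Rmrp turned to 0.551. The inside was the largest of the 3 classes of reads in 5 of 7 RNAs in each library, with Vaultrc5 among them with DMSO and Rny1, at 49.1% of its reads, with AICAR, and in 4 to 6 under the alternatives. In Rn7sk, 7SL, Rmrp and Rpph1, of 281 to 331 nt, most possible places of a tag are inside by length alone. No expected count was computed.

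Filtering by exact matches in the genome was not run, because no genome sequence was used here. No paired analysis was possible because each condition has 1 library. The single library limits every comparison, and low read numbers further widen the intervals of Vaultrc5, Rmrp and Rpph1.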
